A study of Mus musculus with 8 samples.

Results

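Semaphorins are secreted, membrane-spanning or lipid-anchored proteins that steer axons, dendrites and migrating cells, and plexins are the receptors through which they signal. The secreted class 3 semaphorins mostly bind through neuropilins, which pair with plexin-A receptors. The membrane-bound classes bind plexins directly. Plexins act inside the cell by switching off small GTPases of the Ras and Rap families, which collapses or redirects growing processes. In the brain several of these genes are made by neurons and several by cells of the oligodendrocyte lineage, which form myelin.

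The set holds every gene of the deposited table whose symbol is a semaphorin of classes 3 to 7, a plexin, or the neuropilin Nrp1 or Nrp2. That gave 31 of 55401 genes, 20 ligands and 11 receptors. A mean FPKM of at least 0.1 over the 8 libraries was asked for testing. FPKM, computed by the authors, is a read level corrected for transcript length and library depth. Members were thus selected on their symbol and on mean FPKM. All 31 genes passed, since the lowest mean was 0.629 FPKM in Sema3e and the next 0.638 FPKM in Sema3a, so no member lay outside the floor. The difference between treatments had no part in that floor.

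The libraries came from hypothalami of mouse pups on postnatal day 19. One group of 4 pups (F1, F2, M1 and M2) received PLX3397, which blocks the receptor CSF1R that microglia need to survive. The other group of 4 pups, labelled the same way, received vehicle. Both were gavaged from day 9 to day 15, and each group held 2 females and 2 males. No strain is stated, and the tissue label of the samples reads only brain. The 6 hypothalamic peptide genes Pmch, Hcrt, Avp, Oxt, Gal and Trh were all present in every library, at 21.8 FPKM or more. PLX3397 also inhibits related receptor kinases and reaches CSF1R-dependent cells throughout the pup.

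Total counts ran from 55900335 to 67487391 in the PLX3397 libraries and from 54115300 to 60001808 in the vehicle libraries. The members had between 190 and 19435 counts in a library. Among 8 pituitary genes the summed level was 29.3 to 40.2 CPM (counts scaled to library size) in PLX3397 libraries, against 27.4 to 4061 CPM in vehicle libraries, the high value being vehicle F1. PLX3397 M2 had the lowest summed FPKM of the microglial and of each oligodendrocyte list. Of the 15 microglial marker genes 11 fell with edgeR, with P2ry12 (−4.85 on the log2 scale) at the smallest p. All 15 had a negative sign and an unadjusted p under 0.05 (edgeR), and DESeq2 called 14. The summed level of the 15 genes was 25.0 to 56.2 CPM in PLX3397 libraries, against 362 to 374 CPM in vehicle libraries.

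Of the 31 genes, 5 fell in PLX3397 hypothalami and 0 rose (edgeR quasi-likelihood test, Benjamini-Hochberg adjusted p under 0.05 over all 22423 genes tested). These were the receptor gene Plxnb3 and the ligand genes Sema3d, Sema4d, Sema5a and Sema5b. Of all tested genes 1.48% were called, 1.27% lower and 0.205% higher, and 16.1% of the members were lower. The members were chosen with earlier results of these data known, so these shares do not test whether the family stands apart. The mean FPKM of each member was 0.629 or more, while the floor for all tested genes was 0.1. At an unadjusted p under 0.05 there were 10 members, 8 lower and 2 higher, where 14.4% of all tested genes reached that level, and DESeq2 and limma-trend also called 0 members higher. The 4 PLX3397 values lay wholly below the 4 vehicle values in 8 members (6.41% of all tested genes) and wholly above them in 2 (3.51%), where 9.92% of all tested genes were apart in either direction. The log2 fold change was negative in 19 members, where it was negative in 51% of all tested genes. Its median was −0.04 over the members and −0.00 over all tested genes, and 20 of the 26 members that were not called lay within 0.15 of 0.

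**Figure D1:**
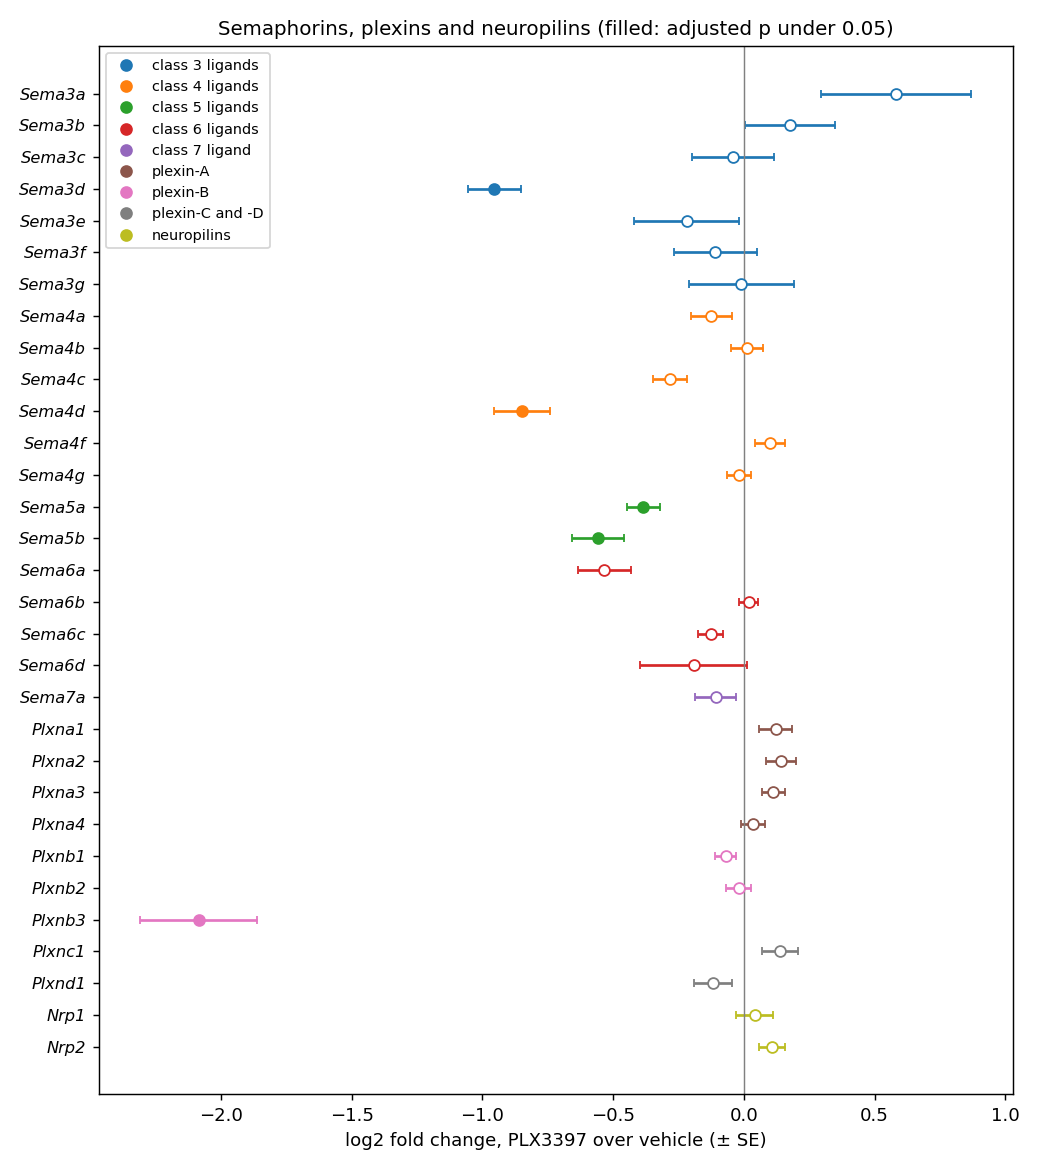
Log2 fold change of PLX3397 over vehicle for each of the 31 genes, with its standard error, coloured by class; filled points have an adjusted p under 0.05. Plxnb3 lies farthest to the left at −2.09, and the 4 other filled points are ligands between −0.95 and −0.39.

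The start regions of Plxnb3 and Sema3d, which fell, and of a close neighbour of each that was not called are printed here, since each pair lies close together on a chromosome and differed in its response. Plxnb3 and Plxna3 lie 0.557 Mb apart on chromosome X, and Sema3d and Sema3a lie 0.536 Mb apart on chromosome 5. Each stretch is the 300 bases around a transcription start, mostly upstream of it, from RefSeq (GRCm38.p6), 5′ to 3′ on the plus strand. Capitals mark 6-base matches, on either strand, to ACAAAG or ACAATG, which are core letters that SOX factors bind, and to CAGCTG, a form of the E-box that basic helix-loop-helix factors bind. None of the motifs overlapped another. They were chosen after the values had been seen. The Sema3a stretch is an internal start, 271 kb inside the deposited gene, and is therefore much farther from Sema3d than the gap between the genes.
Plxnb3, chrX:73756853-73757152, plus strand: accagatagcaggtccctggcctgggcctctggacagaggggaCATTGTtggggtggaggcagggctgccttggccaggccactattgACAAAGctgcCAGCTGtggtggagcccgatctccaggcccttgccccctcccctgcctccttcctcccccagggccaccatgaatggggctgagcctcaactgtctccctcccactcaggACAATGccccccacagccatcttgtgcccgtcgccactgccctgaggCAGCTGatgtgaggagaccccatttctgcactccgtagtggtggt
Plxna3, chrX:74328816-74329115, plus strand: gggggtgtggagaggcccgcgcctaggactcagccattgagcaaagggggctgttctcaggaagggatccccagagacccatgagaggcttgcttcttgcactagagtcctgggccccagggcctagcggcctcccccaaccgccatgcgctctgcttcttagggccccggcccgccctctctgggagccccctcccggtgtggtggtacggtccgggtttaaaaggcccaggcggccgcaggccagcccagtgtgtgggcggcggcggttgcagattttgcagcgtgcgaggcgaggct
Sema3d, chr5:12382916-12383215, plus strand: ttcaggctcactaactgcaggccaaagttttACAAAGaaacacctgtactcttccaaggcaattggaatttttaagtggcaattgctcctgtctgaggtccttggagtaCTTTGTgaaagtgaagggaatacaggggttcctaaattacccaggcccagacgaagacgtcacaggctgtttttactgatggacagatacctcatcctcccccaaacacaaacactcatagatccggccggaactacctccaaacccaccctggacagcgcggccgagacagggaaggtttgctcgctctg
Sema3a, chr5:13396534-13396833, plus strand: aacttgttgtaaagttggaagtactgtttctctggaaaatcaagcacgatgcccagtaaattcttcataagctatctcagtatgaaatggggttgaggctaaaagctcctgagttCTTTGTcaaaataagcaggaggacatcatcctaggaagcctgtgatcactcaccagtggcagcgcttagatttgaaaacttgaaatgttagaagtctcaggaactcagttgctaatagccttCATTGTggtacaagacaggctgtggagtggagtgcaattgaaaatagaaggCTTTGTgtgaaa

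The Plxnb3 stretch held 5 matches, 3 of them to the SOX core letters and 2 to CAGCTG, and had 4 CpG dinucleotides. Its neighbour Plxna3 held 0 matches and 18 CpG. Sema3d held 2 matches to ACAAAG and Sema3a 3 matches to the SOX core letters, with 8 and 2 CpG. Among all 32851 RefSeq stretches of this length, 28.6% held at least 1 of the SOX core motifs, 16.3% held CAGCTG, and the median was 7 CpG. Such matches were therefore found in the start region of a gene that fell and of one that did not, and they describe letters, not bound sites. Of the other called members, the Sema5a and Sema5b stretches held 0 matches and 23 and 27 CpG, and the 3 RefSeq starts of Sema4d, all 36.7 to 54.0 kb inside the deposited gene, held 0, 1 and 1 matches and 3, 3 and 2 CpG. In all, 26 members had an entry, with 37 starts between them.

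Among the receptors, Plxnb3 fell and no other receptor was called. Plxnb3 encodes plexin-B3, a receptor of semaphorin-5A (chromosome X, 73757090 to 73772514, plus strand, mm10). It was 3.01, 2.49, 2.90 and 1.65 FPKM in PLX3397 F1, F2, M1 and M2, against 9.24, 8.94, 12.2 and 13.1 FPKM in vehicle F1, F2, M1 and M2. Every PLX3397 library lay far below every vehicle library, and PLX3397 M2 was the lowest of all. The means were 2.51 ± 0.619 FPKM in PLX3397 and 10.9 ± 2.09 FPKM in vehicle (SD, n = 4 each). The difference was 4.24-fold, with a log2 fold change of −2.09 ± 0.22 (SE; edgeR adjusted p = 0.00727), and Plxnb3 stayed called without any 1 library in turn (adjusted p 0.0038 to 0.038).

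The other plexin-B genes did not follow it. Plxnb1, which encodes the main receptor of semaphorin-4D, was 14.3, 15.4, 16.2 and 15.5 FPKM in the PLX3397 libraries, against 16.5, 14.9, 16.8 and 16.8 FPKM in the vehicle libraries (same library order), and the groups overlapped. Its log2 fold change was −0.07 ± 0.04 (edgeR adjusted p = 0.509). The antisense gene Gm7628 shares 2.68% of its annotated exon bases. Plxnb2, a receptor of class 4 semaphorins such as semaphorin-4C, averaged 17.3 ± 0.299 FPKM in PLX3397 and 17.8 ± 1.15 FPKM in vehicle (−0.02 ± 0.05, adjusted p = 0.897). Plxnb3 made up 7.14 ± 1.75% of the summed plexin-B FPKM in PLX3397 libraries, against 24.1 ± 3.43% in vehicle libraries. The summed plexin-B level was 34.2 to 36.6 FPKM in PLX3397 libraries and 40.6 to 47.3 FPKM in vehicle libraries.

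**Figure D2:**
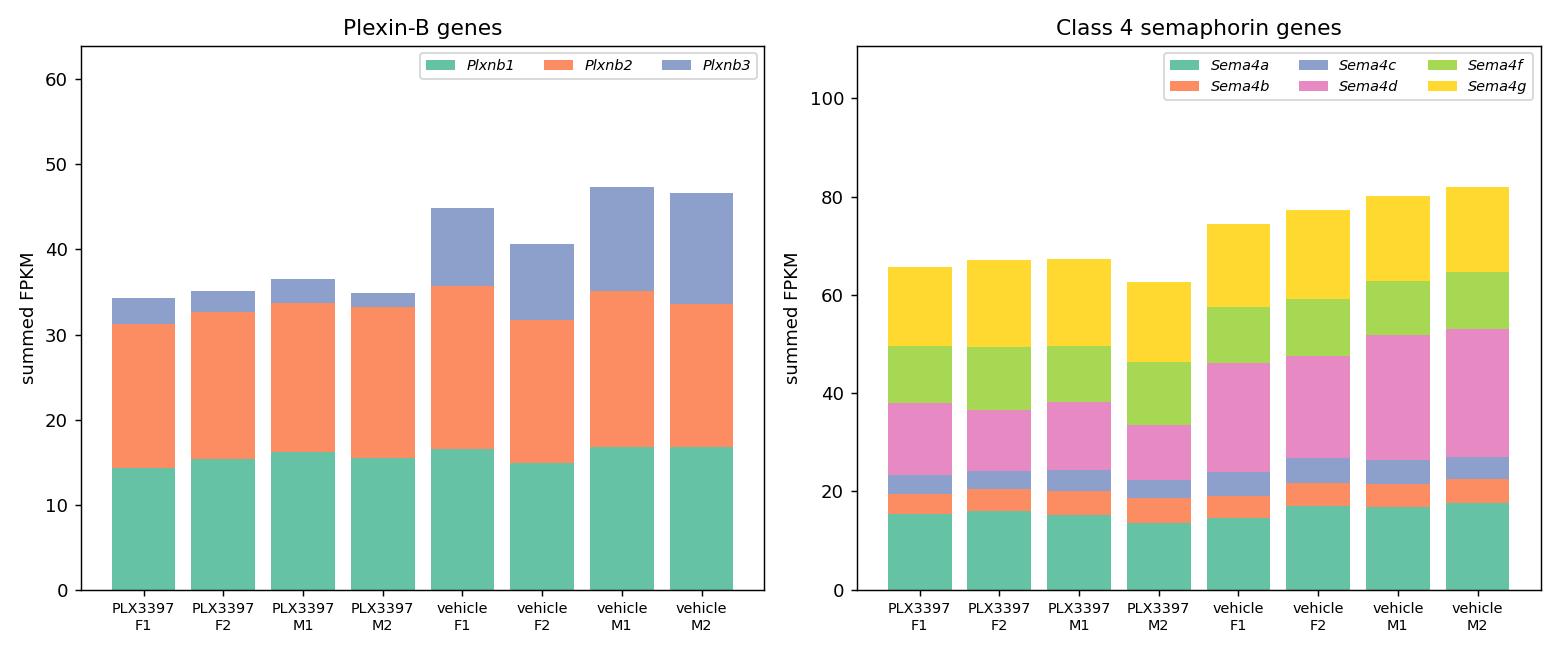
Summed FPKM of the plexin-B genes (left) and of the class 4 semaphorin genes (right) in each library, PLX3397 libraries first, with each gene as a coloured segment. The Plxnb3 and Sema4d segments are shorter in each of the 4 PLX3397 bars than in every vehicle bar, while the segments of the uncalled genes change less. Among the uncalled genes, the Sema4c segment is also shorter in each PLX3397 bar than in every vehicle bar.

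The 4 plexin-A genes, whose products serve as signalling partners of neuropilins and as direct receptors of class 6 semaphorins, all had small positive fold changes, under each scaling tried, and none was called (2 had an unadjusted p under 0.05, and DESeq2 called 0). Plxna1, the member with the highest level of all, was 27.2, 29.1, 31.1 and 32.7 FPKM in the PLX3397 libraries, against 26.6, 29.9, 28.0 and 26.7 FPKM in the vehicle libraries. The groups overlapped, and the log2 fold change was 0.12 ± 0.06 (edgeR adjusted p = 0.439). An antisense gene, Gm26811, shares 10.7% of the annotated exon bases of Plxna1, and without stated strand use in the counting its reads cannot be told apart from those of Plxna1.

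Plxna2 was 5.78, 5.56, 5.71 and 6.07 FPKM in the PLX3397 libraries, against 5.21, 5.53, 5.56 and 4.86 FPKM in the vehicle libraries. Plxna3 was 13.7, 13.7, 13.4 and 14.1 FPKM in the PLX3397 libraries, against 12.1, 12.7, 13.3 and 13.1 FPKM in the vehicle libraries. In both genes all PLX3397 values were above all vehicle values by a narrow margin. Neither passed the adjusted threshold: Plxna2 had 0.14 ± 0.06 (edgeR adjusted p = 0.304) and Plxna3 0.11 ± 0.04 (adjusted p = 0.29). Plxna4, needed for responses to semaphorin-3A in sensory axons, averaged 9.26 ± 0.123 FPKM in PLX3397 and 9.13 ± 0.472 FPKM in vehicle (0.03 ± 0.04, adjusted p = 0.798).

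The remaining receptors differed little. Plxnc1, the receptor of semaphorin-7A, averaged 10.4 ± 1.14 FPKM in PLX3397 and 9.50 ± 0.598 FPKM in vehicle (0.14 ± 0.07, edgeR adjusted p = 0.429). Plxnd1, the receptor of semaphorin-3E in vessels and neurons, averaged 3.17 ± 0.161 FPKM in PLX3397 and 3.47 ± 0.25 FPKM in vehicle (−0.12 ± 0.07, adjusted p = 0.523). Apart from Plxnb3, the 10 receptor genes had log2 fold changes from −0.12 to 0.14, 7 positive and 3 negative.

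Of the neuropilins, which carry class 3 semaphorins and also vascular endothelial growth factor, Nrp2 had the higher level. It was 10.1, 10.1, 9.72 and 9.51 FPKM in the PLX3397 libraries, against 8.80, 9.35, 9.83 and 8.98 FPKM in the vehicle libraries. Only vehicle M1 reached into the PLX3397 range, and the difference did not pass (0.11 ± 0.05, edgeR adjusted p = 0.39). Nrp1 averaged 3.46 ± 0.14 FPKM in PLX3397 and 3.39 ± 0.258 FPKM in vehicle (0.04 ± 0.07, adjusted p = 0.856).

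Among the 7 class 3 ligands, which are secreted, Sema3d fell and the other 6 were not called. Sema3d (chromosome 5, 12383385 to 12588948, plus strand) was 0.826, 0.701, 0.808 and 0.773 FPKM in PLX3397 F1, F2, M1 and M2, against 1.28, 1.46, 1.70 and 1.69 FPKM in vehicle F1, F2, M1 and M2. The PLX3397 values were tightly grouped, and each was below every vehicle value. The difference was 1.94-fold (log2 fold change −0.95 ± 0.10, edgeR adjusted p = 0.00709), and the call was kept without any 1 library in turn (adjusted p 0.0103 to 0.0378). It was lost when vehicle F1 and PLX3397 M2 were left out together (adjusted p = 0.0524), with little change in size.

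Sema3a, the collapsing factor of sensory axons that is also bound in perineuronal nets, lies next to Sema3d and had the highest positive value of the family. It was 0.838, 0.712, 0.596 and 0.834 FPKM in the PLX3397 libraries, against 0.759, 0.672, 0.222 and 0.475 FPKM in the vehicle libraries. Vehicle F1 and F2 lay within the PLX3397 range and vehicle M1 far below it, and the difference of 0.58 ± 0.29 did not pass (edgeR adjusted p = 0.42). It was 0.31 without vehicle M1, and 0.30 with limma-trend at a pseudocount of 0.5. Sema3f, a ligand that acts through neuropilin-2 and the class 3 member with the highest level, was 3.74, 3.20, 3.39 and 4.06 FPKM in the PLX3397 libraries, against 5.09, 3.06, 3.54 and 3.99 FPKM in the vehicle libraries. The vehicle values spanned the whole PLX3397 range (−0.11 ± 0.16, adjusted p = 0.83). The log2 fold change of Sema3f was 0.07 without vehicle F1, which held the highest value, and −0.22 without vehicle F2, which held the lowest.

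The other class 3 genes were also within their spread. Sema3c averaged 2.76 ± 0.569 FPKM in PLX3397 and 2.87 ± 0.352 FPKM in vehicle, with a log2 fold change of −0.04 ± 0.16. Sema3g averaged 1.28 ± 0.196 FPKM in PLX3397 and 1.29 ± 0.316 FPKM in vehicle, with −0.01 ± 0.20. Sema3b and Sema3e had 0.18 ± 0.17 and −0.22 ± 0.20 (edgeR adjusted p = 0.716 and 0.698). Sema3b and Sema3f are also neighbours, 0.0723 Mb apart on chromosome 9. The 5 lowest levels of the family in both groups were those of class 3 genes. Within the class the SD in the vehicle group ran from 12.3% of the mean in Sema3c to 44.8% in Sema3a.

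**Figure D3:**
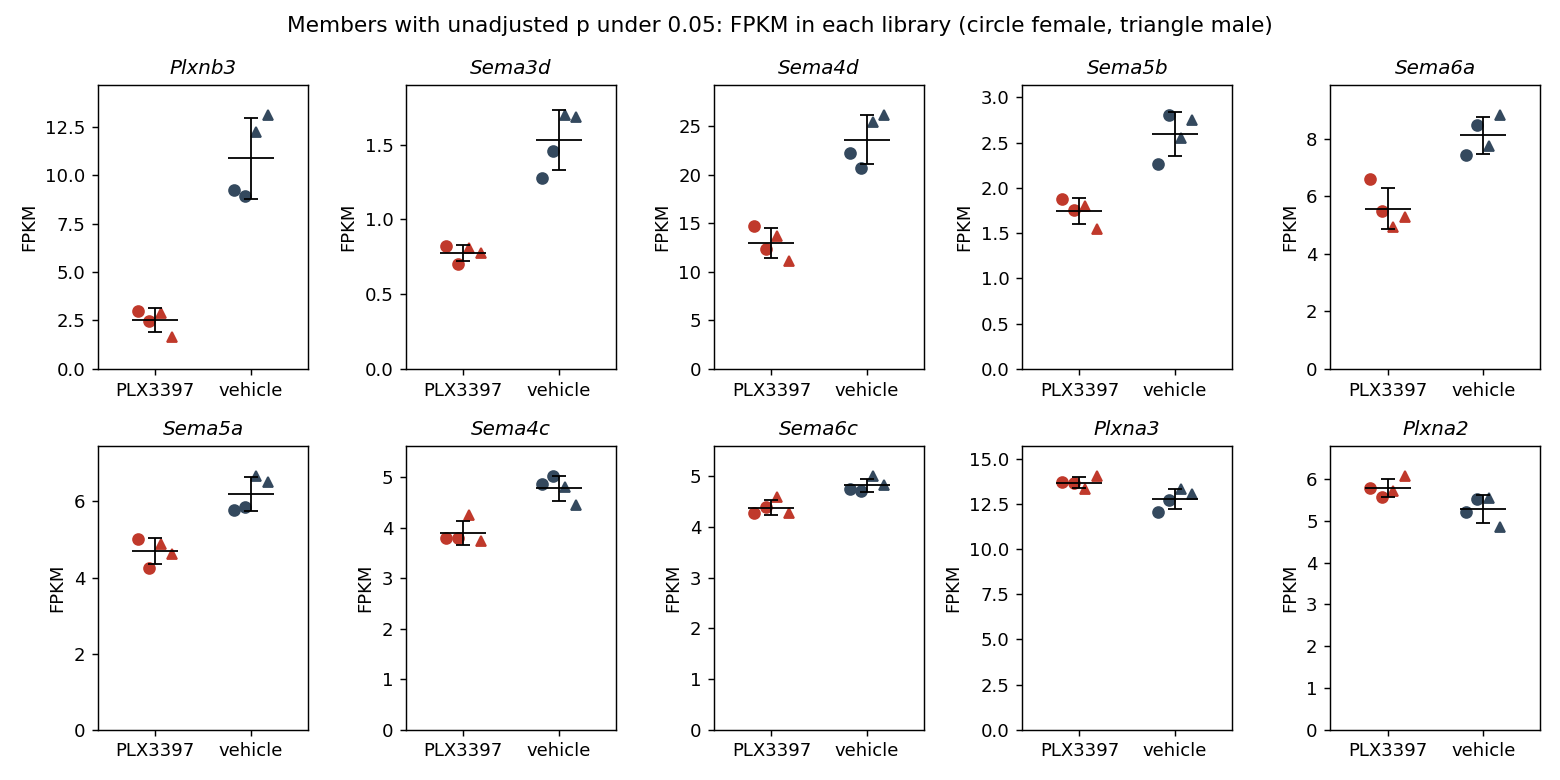
FPKM in each library for the 10 genes with an unadjusted p under 0.05, PLX3397 on the left of each panel and vehicle on the right, circles for females and triangles for males; the horizontal mark is the mean and the bar the SD (n = 4). Plxnb3, Sema3d and Sema4d show the widest gaps between groups, while Plxna2 and Plxna3 are slightly higher after PLX3397.

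Of the 6 class 4 ligands, which span the membrane, Sema4d fell. It encodes semaphorin-4D, a ligand of plexin-B1 made in the brain by oligodendrocytes (chromosome 13, 51685529 to 51793673, minus strand). It was 14.7, 12.3, 13.7 and 11.1 FPKM in PLX3397 F1, F2, M1 and M2, against 22.2, 20.7, 25.4 and 26.1 FPKM in vehicle F1, F2, M1 and M2. Each PLX3397 library was below each vehicle library, and the vehicle males were the highest. The difference was 1.80-fold (−0.85 ± 0.11, edgeR adjusted p = 0.0151). The adjusted p rose to 0.0614 without PLX3397 F2, 0.0619 without PLX3397 M1, 0.0603 without vehicle M1 and 0.0578 without vehicle M2, with log2 fold changes between −0.94 and −0.75 over all 8 such fits.

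Sema4d was the class 4 gene with the highest vehicle level and made up 30.1 ± 2.35% of the summed class 4 FPKM there, against 19.7 ± 2.06% in PLX3397 libraries. Sema4c, a ligand of plexin-B2, was 3.79, 3.79, 4.26 and 3.73 FPKM in the PLX3397 libraries, against 4.86, 5.02, 4.79 and 4.44 FPKM in the vehicle libraries. The groups did not overlap, but the difference did not pass (−0.28 ± 0.07, edgeR adjusted p = 0.107; DESeq2 adjusted p = 0.0135). An opposite-strand gene, D430040D24Rik, shares 7.27% of the annotated exon bases of Sema4c.

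Sema4a, which has known roles in immune cells and the retina, averaged 15.1 ± 1.04 FPKM in PLX3397 and 16.6 ± 1.29 FPKM in vehicle (−0.12 ± 0.08, edgeR adjusted p = 0.544). Sema4b, Sema4f and Sema4g had 0.01, 0.10 and −0.02 (adjusted p from 0.505 to 0.96). The summed class 4 level, 62.5 to 67.4 FPKM in PLX3397 libraries and 74.4 to 82.0 FPKM in vehicle libraries, lay apart, with means of 65.7 and 78.4 FPKM, while Sema4d alone had means of 12.9 and 23.6 FPKM in these groups.

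Both class 5 ligands, membrane proteins with thrombospondin repeats, fell. Sema5a (chromosome 15, 32244810 to 32696341, plus strand) encodes a ligand of plexin-B3. It was 5.01, 4.25, 4.89 and 4.61 FPKM in PLX3397 F1, F2, M1 and M2, against 5.76, 5.85, 6.67 and 6.5 FPKM in vehicle F1, F2, M1 and M2, with no overlap. The difference was 1.31-fold (−0.39 ± 0.06, edgeR adjusted p = 0.0343). It was called without PLX3397 F1 (adjusted p = 0.0103) and missed the threshold without each other library, at 0.112 without PLX3397 F2, 0.122 without PLX3397 M1, 0.1 without PLX3397 M2, 0.0607 and 0.1 without vehicle F1 and F2, and 0.117 and 0.128 without vehicle M1 and M2.

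Sema5b (chromosome 16, 35541145 to 35664261, plus strand), known for limiting neurites and synapses, was 1.88, 1.75, 1.80 and 1.55 FPKM in the PLX3397 libraries, against 2.27, 2.80, 2.55 and 2.75 FPKM in the vehicle libraries. The groups again lay apart. The difference was 1.47-fold (−0.56 ± 0.10, edgeR adjusted p = 0.0447). It was called without vehicle F1 (adjusted p = 0.0254), and missed the threshold at 0.0682, 0.139, 0.129 and 0.113 without PLX3397 F1, F2, M1 and M2 and at 0.124, 0.129 and 0.146 without vehicle F2, M1 and M2. It was called in 6 of 11 other settings, and was lost with no FPKM floor (0.0538) and with limma-trend at both pseudocounts (0.0586 and 0.0558), among others. Sema5a and Sema5b kept about the same ratio to each other: Sema5a was 72.9 ± 1.64% of the class 5 FPKM in PLX3397 and 70.5 ± 2.1% in vehicle libraries.

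None of the 4 class 6 ligands, membrane proteins that bind plexin-A receptors, was called with edgeR (2 had an unadjusted p under 0.05, and DESeq2 called 1). Sema6a, expressed by oligodendrocytes as well as neurons, came closest. It was 6.60, 5.50, 4.93 and 5.28 FPKM in the PLX3397 libraries, against 7.44, 8.50, 7.75 and 8.82 FPKM in the vehicle libraries, and the groups did not overlap. The log2 fold change was −0.53 ± 0.10 (edgeR adjusted p = 0.0586). It was called in 7 of 11 other settings, with adjusted p of 0.000106 in DESeq2 and 0.0467 with a floor of 0.5 FPKM, and without PLX3397 F1 (0.0301) but none of the 7 other libraries.

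Sema6b had the highest level of the class and was nearly constant, at 27.6, 26.1, 26.4 and 25.2 FPKM in the PLX3397 libraries, against 26.1, 26.4, 26.3 and 26.2 FPKM in the vehicle libraries (0.02 ± 0.04, edgeR adjusted p = 0.882). Sema6c was 4.27, 4.39, 4.58 and 4.28 FPKM in the PLX3397 libraries, against 4.74, 4.71, 5.0 and 4.84 FPKM in the vehicle libraries. The groups lay apart, yet the difference was small (−0.13 ± 0.05, adjusted p = 0.285). Sema6d varied within both groups, from 5.64 to 9.61 FPKM in PLX3397 and from 6.99 to 12.7 FPKM in vehicle (−0.19 ± 0.21, adjusted p = 0.751).

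Sema7a, the lipid-anchored class 7 ligand of plexin-C1 and of integrins, was 11.7, 10.7, 11.6 and 9.29 FPKM in the PLX3397 libraries, against 11.6, 11.6, 12 and 11.9 FPKM in the vehicle libraries. PLX3397 M2 was the low value, and the groups overlapped (−0.11 ± 0.08, edgeR adjusted p = 0.61).

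The order of the levels was largely the same in both groups, apart from Plxnb3 and Sema4d. Plxna1 and Sema6b were the highest members in both, and Sema3a and Sema3e were the lowest. Plxnb3 stood 25th of 31 in PLX3397 and 11th in vehicle libraries, and Sema4d 8th in PLX3397 and 3rd in vehicle libraries. No other gene moved by more than 3 places. Of the 30 pairs of neighbours in the order, 8 differed by more than the sum of their SDs in PLX3397 libraries and 8 in vehicle libraries, and the rest did not differ beyond their spread. Plxna1 and Sema6b differed by more than that sum in PLX3397 libraries (30.0 ± 2.39 and 26.3 ± 1.01 FPKM) but not in vehicle libraries (27.8 ± 1.54 and 26.2 ± 0.119 FPKM).

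**Figure D4:**
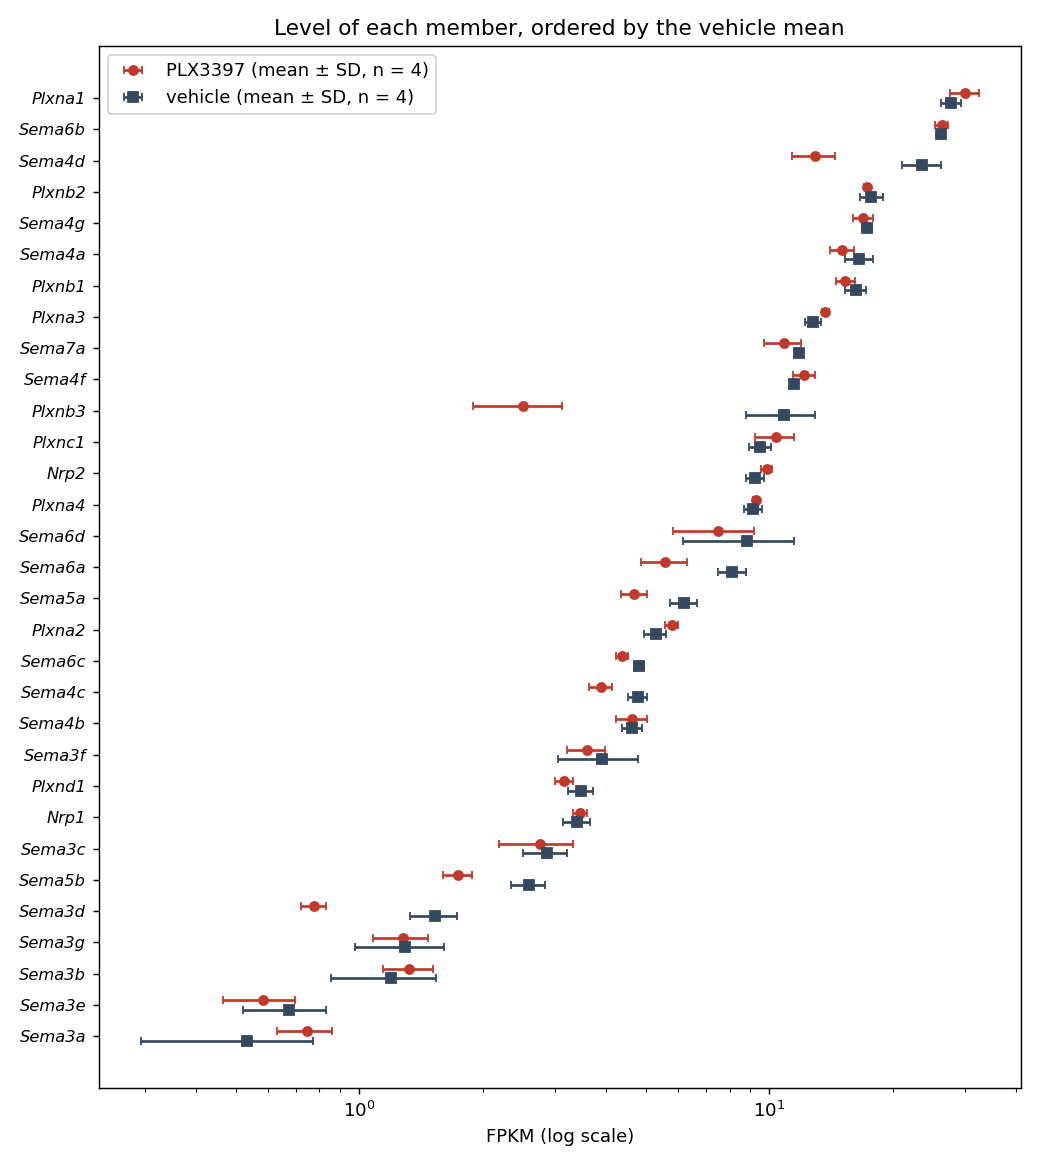
Mean FPKM of each gene on a log axis with its SD (n = 4), circles for PLX3397 and squares for vehicle, ordered by the vehicle mean with the highest at the top. The levels run from below 1 FPKM in Sema3a and Sema3e to about 30 FPKM in Plxna1, and the gap between groups is widest in Plxnb3.

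Within males 3 members fell, Plxnb3 (−2.48 ± 0.25), Sema4d (−1.06 ± 0.12) and Sema3d (−1.10 ± 0.13), with edgeR adjusted p of 0.0149, 0.0171 and 0.0207. Of all genes 1.02% were called within males. There 9 members had an unadjusted p under 0.05 (edgeR), where 12.1% of all genes reached that level. Within females 0 members were called with edgeR, where 0.201% of all genes were. Again 9 members had an unadjusted p under 0.05 within females, where 8.77% of all genes reached that level. Plxnb3, Sema4d and Sema3d had −1.69 ± 0.25, −0.64 ± 0.12 and −0.81 ± 0.13 there (adjusted p = 0.0839, 0.15 and 0.104). The difference between the sexes was called for 0 members (edgeR; 0.00446% of all genes), and 1 member had an unadjusted p under 0.05 (5.68% of all genes). That member was Sema4d, whose female effect minus male effect was 0.42 ± 0.16 (edgeR unadjusted p = 0.0404, adjusted p = 0.858), and for Plxnb3 it was 0.78 ± 0.34 (adjusted p = 0.858). These fits rest on 2 libraries per sex and group.

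Between females and males, with treatment held, 0 of the 31 members were called (edgeR), where 0.0446% of all genes were. Sema4b (−0.15, unadjusted p = 0.0428, adjusted p = 0.967) and Plxnb1 (−0.10, unadjusted p = 0.0488, adjusted p = 0.967) had an unadjusted p under 0.05, and 4.76% of all genes did. Both were lower in females. Plxnb3, which is X-linked, had −0.10 ± 0.22 for females over males (adjusted p = 0.983).

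**Figure D5:**
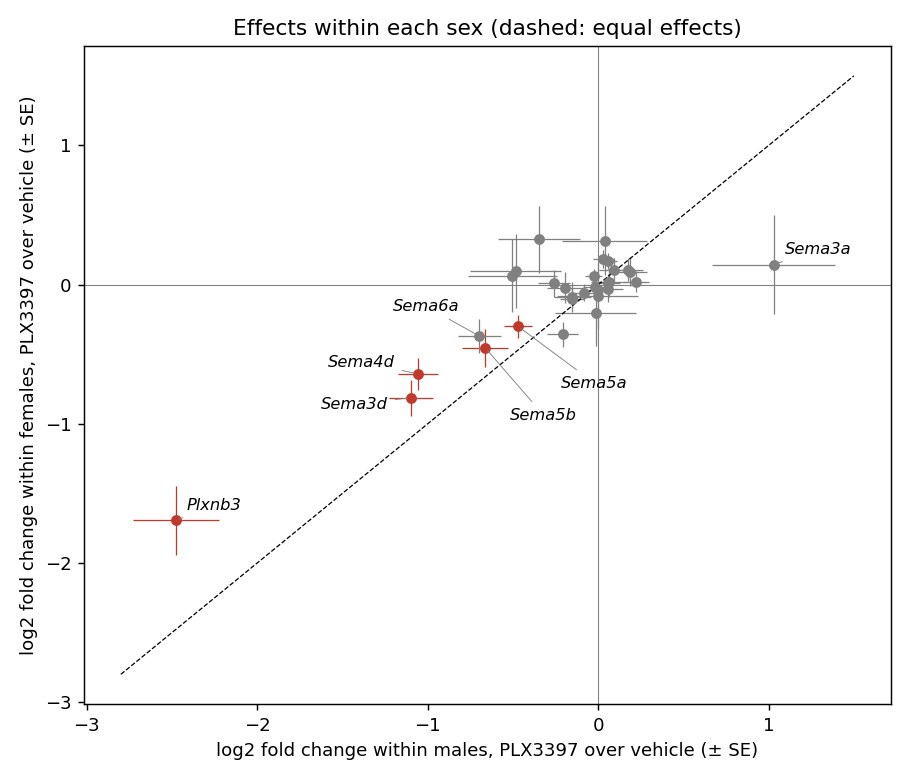
Log2 fold change of PLX3397 over vehicle within males (horizontal) and within females (vertical) for the 31 genes, with standard errors; the dashed line marks equal effects and red points are the 5 genes called over both sexes. All 5 red points lie below 0 in both sexes and on the side of the larger fall in males, a difference that did not pass for any gene.

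Other genes of semaphorin signalling were taken from a list of 65 co-receptors and effectors, of which 64 were tested. Of these 3 fell and 1 rose, with a median of 0.02, where 1.48% of all genes were called. At an unadjusted p under 0.05 there were 21, where 14.4% of all genes reached that level, and DESeq2 called 14. Fyn, a kinase downstream of plexin-A in responses to semaphorin-3A, was 22.4, 23.1, 23.1 and 25.2 FPKM in the PLX3397 libraries, against 35.0, 33.9, 40.3 and 43.0 FPKM in the vehicle libraries (−0.68 ± 0.06, edgeR adjusted p = 0.00514). Rras2, a GTPase of the R-Ras family on which plexins act, was 2.07, 1.75, 1.98 and 1.76 FPKM in the PLX3397 libraries, against 4.16, 3.31, 4.20 and 4.66 FPKM in the vehicle libraries (−1.09 ± 0.12, adjusted p = 0.00729). In both the groups lay apart, and both were called without any 1 library in turn. Without vehicle F1 and PLX3397 M2 together both calls were lost (edgeR adjusted p = 0.0524 for Fyn and 0.093 for Rras2). These genes are also in the list of newly formed oligodendrocyte markers.

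Gipc1, an adaptor that binds the tails of neuropilin-1 and of some semaphorins, averaged 18.9 ± 0.139 FPKM in PLX3397 and 25.6 ± 1.87 FPKM in vehicle (−0.42 ± 0.06, edgeR adjusted p = 0.0185). It stayed called without PLX3397 F1 or vehicle F1 (adjusted p = 0.0365 and 0.017). It missed the threshold at 0.0572, 0.0715 and 0.0609 when PLX3397 F2, M1 and M2 were left out in turn, and at 0.071, 0.075 and 0.0716 for vehicle F2, M1 and M2. Flt1, a receptor of vascular endothelial growth factor that works beside neuropilin-1, rose, with 3.33 ± 0.0933 FPKM in PLX3397 and 2.83 ± 0.0987 FPKM in vehicle (0.25 ± 0.05, adjusted p just under the threshold at 0.04999). It was called without 0 of the 8 libraries in turn (adjusted p 0.0901 to 0.141).

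Next in the list came genes that were not called in the edgeR fit described. Trem2 and Tyrobp, which form a microglial receptor complex that can join plexin-A1, had −4.36 ± 0.82 and −3.76 ± 0.73 (edgeR adjusted p = 0.0561 and 0.0617). The kinase gene Fes had −0.97 ± 0.19 and the GTPase gene Rap1a, whose product the plexin GAP domain acts on, −0.43 ± 0.09 (adjusted p = 0.0589 and 0.0651). DESeq2 called each of these genes, with adjusted p of 0.00575 for Trem2, 0.0112 for Tyrobp, 0.00017 for Fes and 0.000505 for Rap1a. Trem2 is also in the list of microglial markers.

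For the cell types that could carry these transcripts, lists of marker genes gave the following levels beside the members. Of 9 newly formed oligodendrocyte genes 8 fell (median −1.09), with a summed level of 359 to 404 CPM in PLX3397 libraries and 751 to 1192 CPM in vehicle libraries. Tmem163 and Fyn had the smallest p (−0.92 and −0.68). Of 10 oligodendrocyte precursor genes 6 fell (median −0.92), at 715 to 763 CPM in PLX3397 libraries and 1214 to 1490 CPM in vehicle libraries, led by Tnr and Neu4 (−0.92 and −5.13). Of 14 myelinating oligodendrocyte genes 4 fell and all 14 had a negative sign (median −1.22), at 2336 to 5285 CPM in PLX3397 libraries and 6789 to 10267 CPM in vehicle libraries, led by Myrf and Gjc3 (−1.66 and −1.34). An unadjusted p under 0.05 (edgeR) was reached by 9 newly formed, 8 precursor and 13 myelinating oligodendrocyte genes, and DESeq2 called 9, 6 and 9 of these lists. PLX3397 M2 had the lowest summed FPKM of each of these 3 lists and of the microglial list, and also of Plxnb3, Sema4d and Sema5b, while Sema3d and Sema5a were lowest in PLX3397 F2. No gene of these lists had a count of 0 in all libraries of a group. Fewer cells of a type and less RNA per cell cannot be told apart in whole tissue, and the part of these cells in the fall of Plxnb3, Sema3d, Sema4d, Sema5a and Sema5b was not tested.

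Among the other marker lists, 1 of 10 neuronal genes, Nefl, rose (0.18), and Snap25 had 0.15 (edgeR adjusted p = 0.0573). All 10 neuronal genes had a positive sign (median 0.16), 7 had an unadjusted p under 0.05, and DESeq2 called 5. Their summed level was 5672 to 6119 CPM in PLX3397 libraries and 5284 to 5478 CPM in vehicle libraries. Of 12 meningeal fibroblast genes 3 rose with edgeR (median 0.47), led by Slc6a20a and Slc6a13 (0.79 and 0.74), while 7 had an unadjusted p under 0.05 and DESeq2 called 7. Their summed level was 438 to 616 CPM in PLX3397 libraries and 304 to 436 CPM in vehicle libraries. Of 10 endothelial genes 1, Flt1, rose (median −0.15), and Slco1a4 came next (0.29, adjusted p = 0.141); 4 had an unadjusted p under 0.05 and DESeq2 called 2.

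The 5 other lists had 0 calls with edgeR. Of 10 astrocyte genes 2 had an unadjusted p under 0.05 and DESeq2 called 1 (median 0.03), with Aqp4 and Aldoc at −0.38 and 0.22. Of 10 pericyte and smooth muscle genes 5 had an unadjusted p under 0.05 and DESeq2 called 1 (median −0.07), with Tagln and Cspg4 at −0.65 and −0.27. Cspg4 is also in the list of oligodendrocyte precursor genes. Of 10 tanycyte and ependymal genes 0 had either (median −0.00), with Vim and Dio2 at 0.35 and 0.39. The 8 pituitary genes had a median of −5.71, with Prl and Lhb at −10.02 and −9.87, values that rest on vehicle F1; 2 had an unadjusted p under 0.05 and DESeq2 called 3. The 5 blood genes had a median of −1.54, with Hba-a1 and Hba-a2 at −1.60 and −1.55. Of these 5 genes 4 had an unadjusted p under 0.05 (edgeR) and DESeq2 called 0. Their summed level was 71.1, 32.3, 34.9 and 50.9 FPKM in PLX3397 F1, F2, M1 and M2. It was 38.0, 108, 232 and 235 FPKM in vehicle F1, F2, M1 and M2, so vehicle F1 lay within the PLX3397 range.

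The other guidance families gave no call with edgeR. Of 7 slit and robo genes 0 had an unadjusted p under 0.05 and DESeq2 called 0 (median 0.03). Robo2 and Robo4 had the smallest p (0.11 and 0.18; edgeR adjusted p = 0.36 and 0.49). Of 12 netrin, Dcc and Unc5 genes 3 had an unadjusted p under 0.05 and DESeq2 called 1 (median −0.02), led by Neo1 and Unc5b (−0.25 and −0.51; adjusted p = 0.0529 and 0.261). Of 22 ephrin and Eph genes 3 had an unadjusted p under 0.05 and DESeq2 called 1 (median −0.00), led by Ephb1 and Efnb2 (−0.28 and 0.21; adjusted p = 0.0965 and 0.204). Whether the share of calls differs between these families and the semaphorin family was not tested.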

How the data were processed

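RNA sequencing of 8 hypothalami gave one table with whole-number counts and FPKM per gene and library, deposited by the authors, per the file headers. Per the labels' protocols, ribosomal RNA was removed with probes and cDNA was primed with random primers. Per the submitters' processing notes, bcl2fastq 2.0, HISAT2, StringTie, DESeq2 and limma were used, with mm10. Which tool made the counts, with which strand setting and annotation, is not stated. FPKM per CPM of a member, with CPM taken here over plain library totals, differed by at most 1.17% between libraries, so the deposited FPKM follow the deposited counts.

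Counts of all 22423 genes at or above 0.1 FPKM on average were tested with edgeR 4.0.16 (R 4.3.3), TMM scaling and the quasi-likelihood F-test, two-sided, with sex as covariate, Benjamini-Hochberg adjustment over all genes and a threshold of 0.05. Effects within a sex came from a model with 4 groups. Standard errors were derived from the fold change and its F statistic. The comparison of FPKM levels is descriptive. DESeq2 1.42.0 and limma 3.58.1 served as alternatives. The members and lists were chosen with earlier results of these data known. Members were described in full when called, at an unadjusted p under 0.05 or highest in their class. From the pathway list the called genes and the next 4 by p were named, and from each marker list and other guidance family the 2 of smallest p, of which 1 gene is not reported here. All 31 members are in GENCODE vM21, 26 with the same coordinates. Promoters are from RefSeq GRCm38.p6. No protein sequence was used here. The series describes 8 hypothalami without stating litters, so p-values measure the spread between these samples. Counts of every pair of libraries within a group differed beyond sampling noise. The test was checked on simulated counts. Alternatives were other floors, scalings and tools, no covariate, a replicate block and leaving out libraries.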

Additional observations from a re-analysis of the deposited data

Results flagged for a closer look

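Of 62 groups of 4 libraries (31 genes, each in PLX3397 and in vehicle), 4 held a library whose gap to the nearest other exceeded Dixon's critical value for 4 samples. Chance flags about 1 group in 20. Sema4c was 4.26 FPKM in PLX3397 M1, against 3.73 to 3.79 FPKM in the other PLX3397 libraries. Sema3c was 2.34 FPKM in vehicle M1, against 3.03 to 3.05 FPKM in the other vehicle libraries. Plxnb1 was 14.9 FPKM in vehicle F2, against 16.5 to 16.8 FPKM in the other vehicle libraries. Plxnc1 was 10.4 FPKM in vehicle M1, against 9.13 to 9.33 FPKM in the other vehicle libraries.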

How the results depend on the processing

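The 5 falls of members kept their direction in every alternative. The number of members called lower was 4 to 7 under the other filters, scalings, DESeq2, limma-trend (pseudocounts 0.5 and 0.1), the bias-adjusted deviance of edgeR and no covariate. It was 2 to 5 without each library in turn. Leaving out both vehicle F1 and PLX3397 M2 left 1, Plxnb3 (−1.91, adjusted p = 0.0244). Libraries with the same label correlated by 0.0195 to 0.08 in their deviations, none over 0.1. In the data, not the design, 3 of the 4 PLX3397 libraries correlated best with the vehicle library of their own label and PLX3397 M1 with vehicle M2. Each best match was also of the same sex. The deviations were taken from the treatment means and still held sex, so sex and a pairing by label cannot be told apart here. With that label as a replicate block 0 members and 1 pathway gene, Fyn, were called, with adjusted p of 0.0593 for Plxnb3, 0.0694 for Sema3d, 0.073 for Sema4d, 0.125 for Sema5a and 0.159 for Sema5b. Over all genes the calls were 331 in the fit described, 1201 with DESeq2, 28 under the block, 114 to 333 without each library in turn and 73 without that pair. The pathway list had 4 calls in the fit described, 7 with a floor of 0.5 FPKM, 14 with DESeq2, 7 with the bias-adjusted deviance of edgeR, 9 with no covariate, 1 without that pair (Tyrobp, −3.23) and 2 to 4 without each library in turn. The other guidance families had 0 to 1 calls without each library. The cause was not tested.

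The sign of small values that were never called turned in some fits. Sema4b had −0.0040 with library totals only, −0.00063 and −0.00088 with limma-trend and −0.038 without that pair. In that last fit Sema3c had 0.097, Sema3g 0.038, Sema3f 0.016, Plxnb2 0.012 and Plxna4 −0.0085, and under the block Sema3g had 0.016. Without each library in turn, Sema3c ran from −0.19 to 0.067, Sema3f from −0.22 to 0.068, Sema3g from −0.13 to 0.22, Sema4b from −0.0186 to 0.0496, Sema4g from −0.045 to 0.0076, Sema6b from −0.0075 to 0.036, Plxnb2 from −0.048 to 0.017 and Nrp1 from −0.0055 to 0.084. Every member had 190 counts or more in each library, and 20 of 31 standard errors were under 0.1. Within each sex and for females against males, a floor of 0.5 FPKM left the counts of calls as they were.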
